A study of Mus musculus with 18 samples.

Results

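The RNA levels of 33 genes of glycolysis and pyruvate handling were followed in mouse colon with and without HIF2 overexpression. The set was chosen by gene symbol: the enzymes of glycolysis with their isozymes, a pair of glucose carriers, a pair of lactate carriers, and the Pfkfb and Pdk families with 2 subunits of pyruvate dehydrogenase. All 33 symbols matched a row among the 27131 rows of the table. The groups were 9 libraries labelled WT, with genotype Hif2a +/+, and 9 labelled HIF2, with a genotype written as Hif2a LFL in the sample labels and as LSL in the design text. All libraries were polyadenylated RNA of colon from untreated C57BL/6 mice, and the HIF2 mice are described as overexpressing HIF2 in the colon. The promoter or recombinase that drives the allele, the age and sex of the mice and any pooling were not stated in the texts used here. Whether each library is a mouse of its own is not stated either, and p-values then measure only the spread between libraries, which may be technical.

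Glycolysis splits glucose into pyruvate and yields ATP without oxygen. Carriers of the Slc2a family bring glucose in, hexokinases trap it as a phosphate, phosphofructokinase commits it, and the lower enzymes from Gapdh to enolase make ATP and carry carbon towards pyruvate. Lactate dehydrogenase turns pyruvate into lactate, which the Slc16a carriers move across the membrane, while pyruvate dehydrogenase passes pyruvate to the mitochondrial cycle unless Pdk kinases switch it off. HIF factors are stabilised when oxygen is low. Many glycolytic genes are known targets of HIF1, whereas HIF2 is known in the intestine for iron uptake genes such as Slc11a2.

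Some libraries stood apart before any glycolytic gene was read. Epas1, the gene of HIF2, was at 13.8 to 23.0 FPKM in WT and within that range in 5 of 9 HIF2 libraries, with 4 above it (0.24 ± 0.14 log2, SE, limma adjusted p = 0.246). Egln3 and Slc11a2, which HIF2 is known to raise, were at 225 to 549 and at 229 to 2101 FPKM in 7 HIF2 libraries. In the libraries labelled HIF2 replicates 2 and 4, Egln3 was at 21.8 and 16.7 FPKM and Slc11a2 at 16.5 and 18.2 FPKM, within the WT ranges of 11.4 to 22.2 and 12.8 to 19.0. Smooth muscle markers (13 of 14 tested were higher in HIF2; mean of the 15 listed) lay 2.96 to 3.79 log2 units above the WT mean in HIF2 replicates 0 to 5 and between -0.52 and 0.42 in replicates 6 to 8, against -1.11 to 2.54 in WT, where replicate 3 was highest. Markers of fibroblasts, macrophages and endothelium were also higher in HIF2 (8 of 8 tested in each list), at 0.42 to 3.15, 0.52 to 2.14 and 0.40 to 2.29 log2 units from the WT mean against -1.0 to 1.40, -0.69 to 1.07 and -0.44 to 0.63 in WT. Some smooth muscle and most endothelium markers, such as Myocd and Tek, reached the 1 FPKM mean needed for a test only through HIF2. This favours a call as higher, while the list means hold every listed marker. The 12 colon epithelium markers summed to between 10693 and 20358 FPKM. Of these, 5 were lower in HIF2 and none higher, with a mean of -0.66 to -0.21 log2 units in HIF2 and -0.24 to 0.14 in WT. Their part in the results over all libraries was examined only through the covariates and subsets of libraries. HIF2 replicate 0 also carried neutrophil marker RNA, 4.31 log2 units above the WT mean. Xist was at 114 to 222 FPKM in 4 WT libraries (replicates 5 to 8) and 4 HIF2 libraries (replicates 3 and 6 to 8) and below 1 FPKM in the others. In bulk tissue, fewer cells of a type and less RNA per cell cannot be told apart. Results are therefore given for all libraries and for subsets that leave these out.

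Over all 18 libraries, 5 of the genes were higher in HIF2 (Eno2, Gapdh, Ldha, Pfkp and Pgk1) and 2 were lower (Hk1 and Eno1). A gene was tested if its mean reached 1 FPKM, which left 30 of the 33, and was called at an adjusted p under 0.05 in limma on log2(FPKM + 1), adjusted over 13976 genes. Eno2 reached that mean only through the HIF2 libraries. Of all genes tested, 11.0% were higher and 11.1% were lower, so 5 and 2 of 30 are near the shares of the whole table and are not a result about glycolysis as a set. The median log2 difference was 0.23 over the 30 genes and -0.02 over all genes tested, with 19 of the 30 above 0. At an unadjusted p under 0.05, 14 of the 30 and 4707 of all 13976 passed. In none of the 30 were the groups fully apart. Of all genes tested, 0.758% had every HIF2 library above every WT library and 1.27% had every one below.

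**Figure D1:**
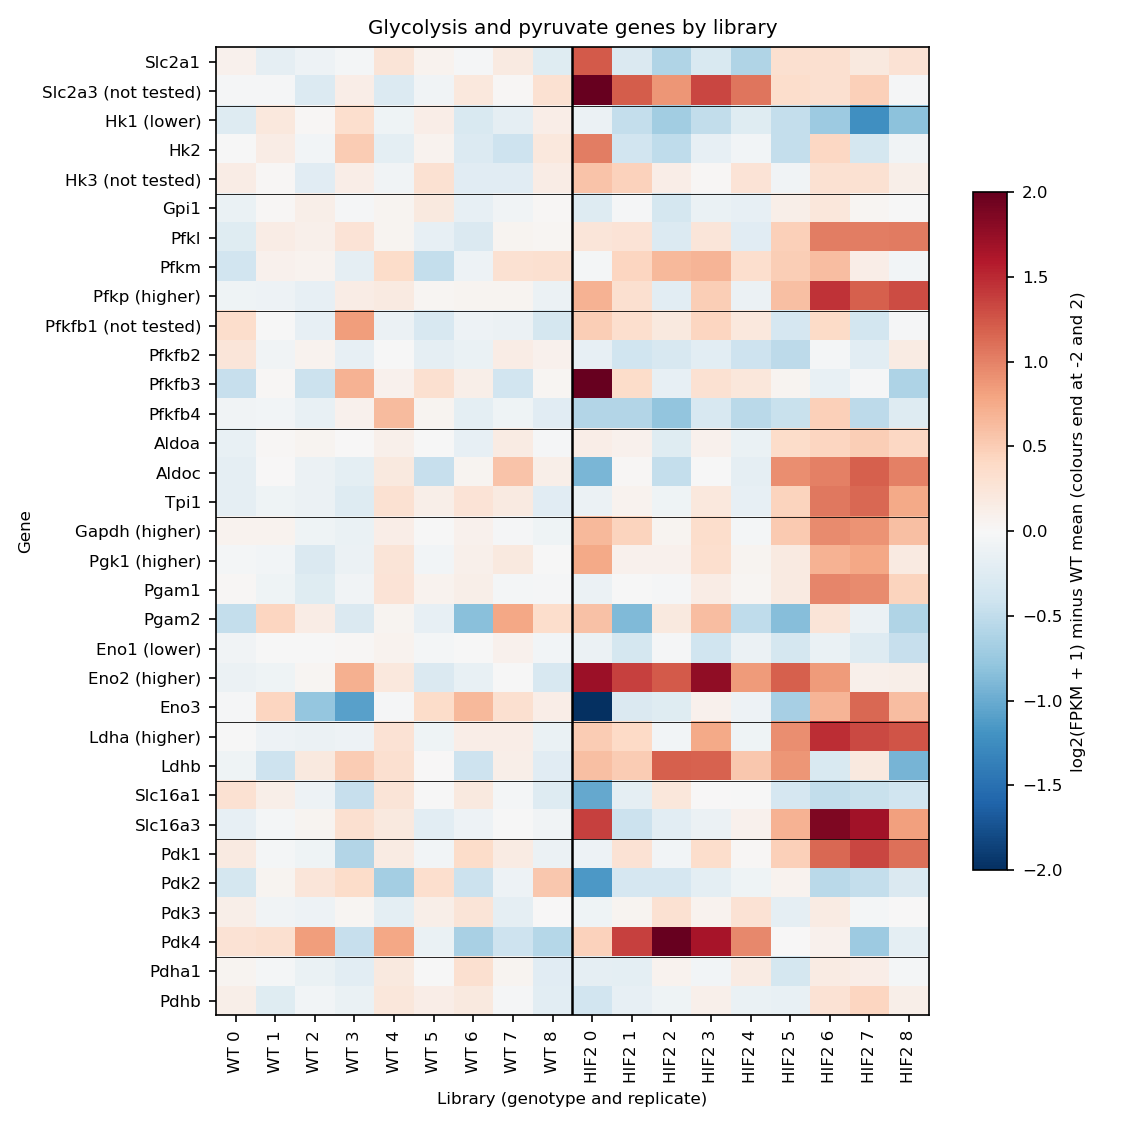
Heat map of log2(FPKM + 1) minus the WT mean for the 33 genes (rows, in pathway order) in 9 WT and 9 HIF2 libraries (columns); "higher" and "lower" mark calls at an adjusted p under 0.05. The phosphofructokinases Pfkl and Pfkp, Ldha, Slc16a3 and Pdk1 are red in HIF2 replicates 6 to 8, while Eno2, Ldhb and Pdk4 are red in replicates 1 to 4.

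The sequences before the start sites of the called genes are shown here because HIF factors are known to bind ACGTG, a form of their core. Other forms of the core were not searched, so the counts below are of ACGTG alone. A script searched ACGTG on both strands (CACGT on the strand read), with overlapping matches joined and printed in capitals, in windows of 250 bases before to 50 bases after each start from RefSeq on GRCm38.p6. For each gene the start with most matches is shown (the first listed where tied), in its own direction, for the called genes with the smallest p and for any called gene with at least 2 matches.
Eno2, chr6:124769624-124769923, minus strand: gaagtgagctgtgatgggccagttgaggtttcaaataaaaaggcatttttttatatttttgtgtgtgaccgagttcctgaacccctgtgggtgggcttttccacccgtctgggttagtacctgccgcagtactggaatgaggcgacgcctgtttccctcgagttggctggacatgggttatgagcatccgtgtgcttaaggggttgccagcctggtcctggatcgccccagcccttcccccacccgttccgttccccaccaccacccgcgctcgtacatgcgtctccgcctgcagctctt
Gapdh, chr6:125165724-125166023, minus strand: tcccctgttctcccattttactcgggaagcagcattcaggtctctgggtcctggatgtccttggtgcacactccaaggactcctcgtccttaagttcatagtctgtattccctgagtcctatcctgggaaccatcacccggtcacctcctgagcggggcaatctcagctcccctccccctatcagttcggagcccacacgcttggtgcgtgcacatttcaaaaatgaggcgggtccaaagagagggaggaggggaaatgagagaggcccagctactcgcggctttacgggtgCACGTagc
Ldha, chr7:46845554-46845853, plus strand: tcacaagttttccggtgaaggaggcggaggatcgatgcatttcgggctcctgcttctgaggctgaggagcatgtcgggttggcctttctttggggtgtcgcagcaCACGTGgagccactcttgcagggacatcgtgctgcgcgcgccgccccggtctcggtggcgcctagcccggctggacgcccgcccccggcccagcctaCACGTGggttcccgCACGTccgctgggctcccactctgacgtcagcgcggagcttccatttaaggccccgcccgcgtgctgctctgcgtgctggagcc
Pgk1, chrX:106186850-106187149, plus strand: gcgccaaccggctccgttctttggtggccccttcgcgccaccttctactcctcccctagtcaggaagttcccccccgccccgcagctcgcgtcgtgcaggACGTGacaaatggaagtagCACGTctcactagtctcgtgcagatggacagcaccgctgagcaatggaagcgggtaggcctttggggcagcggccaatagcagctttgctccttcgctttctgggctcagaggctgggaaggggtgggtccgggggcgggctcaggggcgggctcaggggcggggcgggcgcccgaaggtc
Hk1, chr10:62340372-62340671, minus strand: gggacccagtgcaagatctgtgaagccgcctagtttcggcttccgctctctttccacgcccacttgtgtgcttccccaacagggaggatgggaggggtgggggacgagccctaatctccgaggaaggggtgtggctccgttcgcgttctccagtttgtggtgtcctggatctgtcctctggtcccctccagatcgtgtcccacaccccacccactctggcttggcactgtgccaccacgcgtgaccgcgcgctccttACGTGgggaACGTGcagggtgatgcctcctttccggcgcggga
Eno1, chr4:150236458-150236757, plus strand: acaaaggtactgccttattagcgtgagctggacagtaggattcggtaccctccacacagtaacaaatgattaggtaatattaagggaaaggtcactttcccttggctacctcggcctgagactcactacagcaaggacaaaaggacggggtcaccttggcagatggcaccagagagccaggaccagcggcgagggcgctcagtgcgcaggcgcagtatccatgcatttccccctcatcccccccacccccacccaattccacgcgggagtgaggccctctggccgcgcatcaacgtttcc
Ldha had 3 stretches at this start and none at its other start, Pgk1 had 2, Hk1 had 2 at this start and none at its other, Gapdh had 1, and Eno2 and Eno1 had none. Pfkp, the called gene not shown, had none at its single start. The genes that fell, Hk1 and Eno1, differed in this count, as did Eno2 and Ldha among those that rose. Of the 32 genes with an entry, 56.3% held the letters at any of their starts, against 21.8% of all 27025 genes in the table. By windows, 44% of the 50 windows of these genes held it, against 19.6% of 32851. A match is a run of letters and not evidence of binding, and FPKM per gene does not show which start was used.

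Among the glucose carriers, Slc2a1, the widespread basal carrier, was at 32.5, 37.9 and 46.2 FPKM (lowest, median and highest) in WT and at 25.0, 44.0 and 91.6 in HIF2. The HIF2 libraries spread to both sides of the WT range, with 4 above it and 4 below, and the log2 difference was 0.06 ± 0.19 (SE, adjusted p = 0.860, n = 9 in each group). Slc2a3, the high-affinity carrier of neurons and white blood cells, was at 0 to 0.49 FPKM in WT and 0.192 to 4.04 in HIF2, where 8 of 9 libraries lay above the WT maximum. It fell short of the mean needed for a test. Both carriers were highest in HIF2 replicate 0, the library with neutrophil RNA, whose part in these values was not tested.

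Hexokinase 1, the isozyme of most tissues, fell in HIF2. Hk1 was at 21.8, 27.4 and 34.5 FPKM in WT and at 11.0, 19.1 and 25.0 in HIF2, and 7 of the 9 HIF2 libraries were below the lowest WT library. Its log2 difference was -0.59 ± 0.13 (SE, limma adjusted p = 0.00329), and it was called in each of the 18 fits without 1 library. Hk2, the inducible isozyme, was at 27.2 to 52.6 FPKM in WT and at 25.5 to 75.1 in HIF2, with the highest value again in HIF2 replicate 0, and its log2 difference was -0.06 ± 0.18 (adjusted p = 0.852). Hk3, an isozyme of white blood cells, stayed below 1 FPKM in all libraries. As a share of the summed FPKM of the 3 hexokinases, Hk1 went from 42.5% ± 2.68 (SD, n = 9) in WT to 33.7% ± 7.02 in HIF2, and to 24.5%, 27.6% and 29.8% in HIF2 replicates 6, 7 and 8. The share was 24.8% in HIF2 replicate 0 and 36.7% to 42.2% in replicates 1 to 5, against 37.8% to 46.7% in WT.

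In the upper pathway, Pfkp, the platelet-type phosphofructokinase and the most abundant of the 3 here, rose. It was at 46.7, 53.9 and 59.1 FPKM in WT and at 45.2, 80.1 and 145 in HIF2, a log2 difference of 0.64 ± 0.19 (SE, limma adjusted p = 0.0218). The 2 libraries not above the WT range were HIF2 replicates 2 and 4, at 45.2 and 48.0 FPKM. Pfkl, the liver type, was at 32.8 to 48.7 FPKM in WT, and only the values of 56.1 in HIF2 replicate 5 and 82.9, 82.2 and 83.0 in replicates 6 to 8 exceeded that range (adjusted p = 0.0891). Pfkm, the muscle type, was low at 1.79 to 4.03 FPKM in WT and 2.76 to 5.20 in HIF2 (adjusted p = 0.0725). Gpi1, which turns glucose 6-phosphate into fructose 6-phosphate, was at 91.6 to 118 FPKM in WT and 80.5 to 121 in HIF2, a log2 difference of -0.06 ± 0.08 (adjusted p = 0.632).

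The Pfkfb enzymes set the level of fructose 2,6-bisphosphate, the main activator of phosphofructokinase. None of the 3 tested passed. Pfkfb4 came closest, at 12.4, 14.1 and 23.3 FPKM in WT and 8.06, 9.99 and 20.9 in HIF2, with 8 of 9 HIF2 libraries below the WT minimum and a log2 difference of -0.40 ± 0.14 (adjusted p = 0.0546). The exception was HIF2 replicate 6. Pfkfb2 was at 22.9 to 30.9 FPKM in WT and 17.7 to 29.2 in HIF2 (-0.24 ± 0.09 log2, adjusted p = 0.0633). Pfkfb3, known as a HIF target, was at 0.660 to 2.70 FPKM in WT and at 0.486 to 1.95 in 8 HIF2 libraries, with 12.0 in replicate 0. Pfkfb1 was at 0.155 to 1.67 FPKM over all libraries and was not tested.

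Aldolase splits fructose bisphosphate and Tpi1 interconverts the triose phosphates. None of these 3 genes passed over all libraries. Aldoa was at 425 to 532 FPKM in WT and 402 to 669 in HIF2 (0.18 ± 0.10 log2, adjusted p = 0.209). Aldoc, known from brain, was at 6.92 to 15.3 and 4.84 to 24.2 FPKM. Tpi1 was at 203, 228 and 300 FPKM in WT and 216, 281 and 540 in HIF2 (0.37 ± 0.18 log2, adjusted p = 0.150). In each of these genes the 4 libraries above the WT maximum were HIF2 replicates 5 to 8.

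Of the 7 lower glycolysis genes, Gapdh, Pgk1 and Eno2 rose and Eno1 fell. Gapdh, often used as a reference gene, was at 254, 276 and 304 FPKM in WT and 270, 398 and 535 in HIF2, and 7 of 9 HIF2 libraries exceeded the WT maximum (0.49 ± 0.12 log2, limma adjusted p = 0.00524). The exceptions were again HIF2 replicates 2 and 4, at 290 and 270 FPKM. Pgk1, the first ATP-forming enzyme, was at 193, 229 and 281 FPKM in WT and 245, 266 and 403 in HIF2 (0.35 ± 0.12 log2, limma adjusted p = 0.0355). That call held in 8 of the 18 fits without 1 library. It was lost without any of WT replicates 0 to 3, 5 and 8 or HIF2 replicates 0, 3, 6 and 7, with an adjusted p of up to 0.0704. Pgam1, a phosphoglycerate mutase, was at 103 to 146 FPKM in WT and 112 to 239 in HIF2, and its muscle isozyme Pgam2 was below 4 FPKM throughout. Neither passed (adjusted p = 0.164 and 0.742).

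Of the 3 enolases, which make phosphoenolpyruvate, Eno1 fell and Eno2 rose. Eno1, the widespread form, was at 80.3, 84.0 and 89.9 FPKM in WT and 61.3, 70.7 and 83.3 in HIF2. In 8 of 9 HIF2 libraries it was below the WT minimum, the exception being HIF2 replicate 2, and the log2 difference was -0.24 ± 0.06 (SE, limma adjusted p = 0.00943). Eno2, known as the enolase of neurons, was far lower, at 0.109, 0.303 and 1.25 FPKM in WT and 0.485, 2.16 and 3.70 in HIF2, a log2 difference of 1.02 ± 0.23 (limma adjusted p = 0.00345). On the FPKM scale the HIF2 mean of Eno2 was 2.01, 4.92 times the WT mean of 0.409. Eno2 thus reached the mean needed for a test only through HIF2, which favours a call as higher. The highest WT value was in WT replicate 3, which also had the most smooth muscle RNA of WT, and HIF2 replicates 7 and 8 were within the WT range at 0.485 and 0.495 FPKM. The 4 tested markers of enteric neurons and glia were all higher in HIF2. Of these, Tubb3 (0 to 1.16 FPKM in WT) and Ret (0.288 to 0.740) reached the mean needed for a test only through HIF2. This favours a call as higher. The untested S100b was at 0.403 to 1.39 FPKM in WT and 0.165 to 1.23 in HIF2. The mean of all 10 listed was 0.06 to 1.93 log2 units above the WT mean in HIF2 against -0.21 to 0.42 in WT, and their part in the Eno2 value was not tested. Eno3, known as the muscle form, was as abundant as Eno1 in WT, at 36.5 to 124 FPKM, and the 10 skeletal muscle markers together summed to 2.98 to 12.3 FPKM in WT and 1.48 to 19.6 in HIF2. Among these, the muscle myosins Myh1, Myh2 and Myh4 were below 1 FPKM in all libraries, while Ckm was at 4.81 to 11.9 FPKM in HIF2 replicates 0 to 5 and at 7.30 in WT replicate 3, and 1 of the 2 tested markers was higher in HIF2. Eno3 ranged from 2.94 FPKM in HIF2 replicate 0 to 176 in replicate 7 (-0.34 ± 0.53 log2, adjusted p = 0.704).

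Ldha, the subunit that favours the making of lactate, was the highest of the 33 genes by mean FPKM in WT, and it rose. It was at 559, 576 and 753 FPKM in WT and 577, 1038 and 1716 in HIF2, with a log2 difference of 0.72 ± 0.19 (SE, limma adjusted p = 0.0102). HIF2 replicates 2 and 4, at 593 and 577 FPKM, were inside the WT range, and the other 7 were above it. Ldhb, the heart-type subunit, was at 1.36 to 3.49 FPKM in WT and 0.664 to 6.23 in HIF2 (0.43 ± 0.24 log2, adjusted p = 0.231). Ldha made up 99.6% of the summed FPKM of the pair in both groups, with an SD of 0.12 in WT and 0.309 in HIF2.

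Of the lactate carriers, Slc16a1, known as MCT1, was by far the more abundant, at 86.8 to 148 FPKM in WT and 58.1 to 140 in HIF2 (-0.29 ± 0.14 log2, adjusted p = 0.156). Slc16a3, known as MCT4 and as the carrier of lactate-releasing cells, was at 3.38, 3.94 and 5.33 FPKM in WT and 2.73, 7.16 and 17.4 in HIF2 (0.64 ± 0.27 log2, adjusted p = 0.105). It was at 12.0, 7.16, 17.4, 15.2 and 7.93 FPKM in HIF2 replicates 0, 5, 6, 7 and 8 and within or below the WT range in the others. Slc16a3 made up 3.38% ± 1.01 (SD, n = 9) of the pair in WT and 8.37% ± 6.29 in HIF2. Bsg, known as the chaperone of both carriers, rose from a median of 484 to 830 FPKM (0.95 ± 0.26 log2, limma adjusted p = 0.0119), and Emb, a related partner of such carriers, rose by 0.69 (limma adjusted p = 0.0146). Bsg and Emb were 2 of 4 tested genes in a list of carrier partners, of which none was lower. The WT mean of Emb was below 1 FPKM, so Emb reached the mean needed for a test only through HIF2, which favours a call as higher. Its highest value was in HIF2 replicate 0.

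None of the 4 Pdk kinases, which switch pyruvate dehydrogenase off, passed over all libraries. Pdk1, known as a HIF target, was at 13.3, 19.9 and 26.8 FPKM in WT and 19.0, 26.5 and 53.3 in HIF2 (0.51 ± 0.19 log2, adjusted p = 0.0680). Pdk2 was at 5.33 to 13.6 FPKM in WT and 3.55 to 9.62 in HIF2 (-0.37 ± 0.17 log2, adjusted p = 0.135). Pdk4, known to rise in fasting, was at 3.96 to 12.8 FPKM in WT and 3.69 to 33.0 in HIF2, with its 4 highest values in HIF2 replicates 1 to 4. Pdk3 (0.07 log2) and the subunits of the enzyme itself, Pdha1 (-0.03) and Pdhb (0.00), had adjusted p of 0.605 or more. Pdp2, a phosphatase that switches the enzyme back on, fell by 0.84 on the log2 scale (limma adjusted p = 0.00624), the only call among 9 tested genes of pyruvate entry outside the 33.

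**Figure D2:**
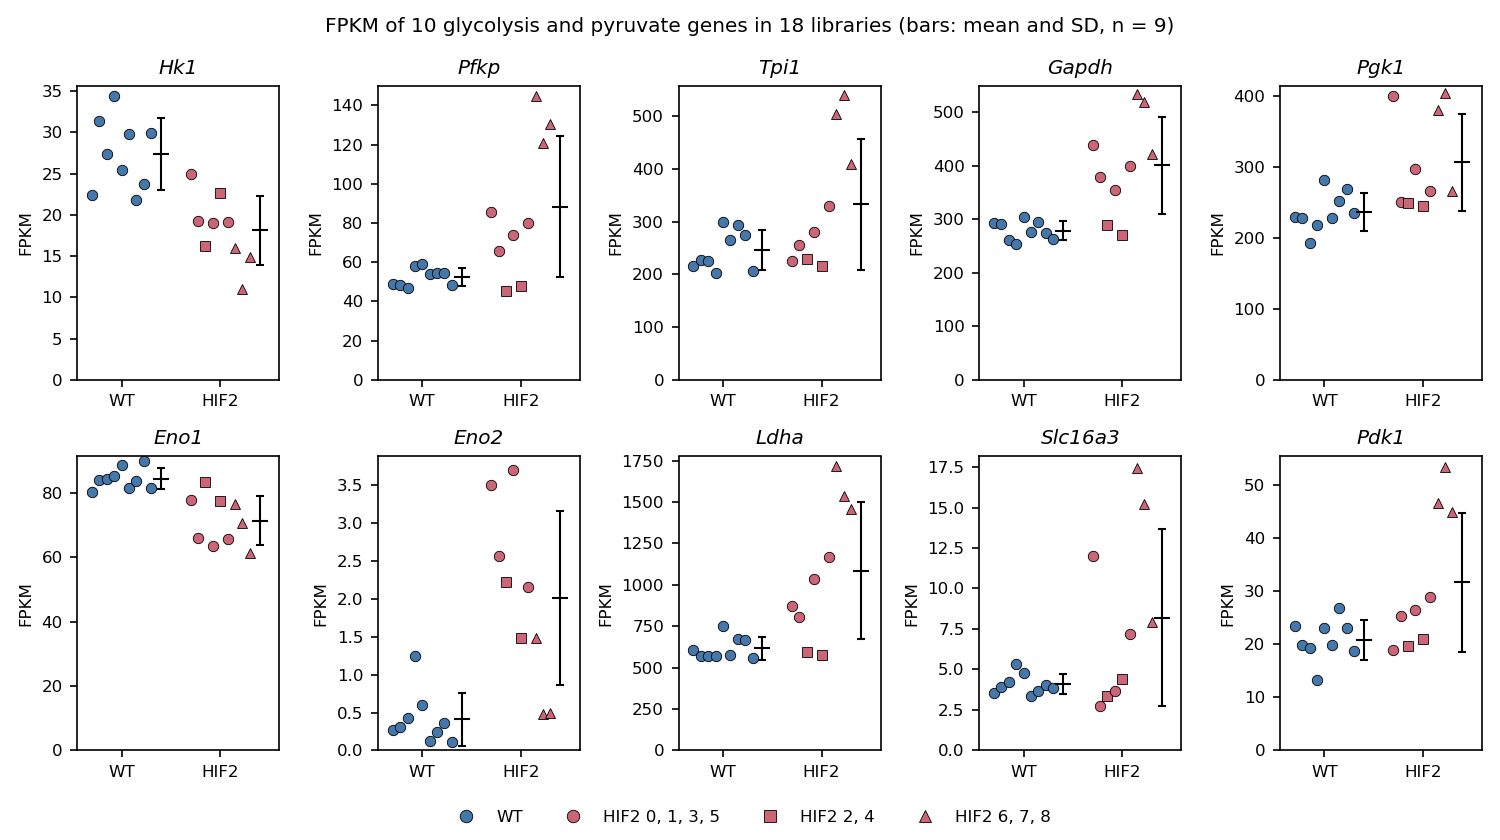
FPKM of 10 genes in each of 9 WT (blue) and 9 HIF2 (red) libraries, with the mean and SD of each group beside the points; squares are HIF2 replicates 2 and 4 and triangles replicates 6 to 8. The triangles are highest for Pfkp, Tpi1, Ldha and Pdk1 and lowest for Hk1, the squares lie among or near the WT points for Pfkp, Gapdh and Ldha, and for Eno2 the 3 highest points are circles.

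Ratios between related genes within a library, which do not depend on its scaling apart from the pseudocount, were compared by an exact 2-sided permutation test over 48620 splits with p adjusted over 12 pairs. The log2 ratio of Hk2 to Hk1 was 0.42 ± 0.15 (SD, n = 9) in WT and 0.94 ± 0.45 in HIF2 (exact p = 0.00239, adjusted 0.0143). The shift lay mainly in HIF2 replicates 0 and 6 to 8, where Hk1 made up 24.5% to 29.8% of the hexokinases. It was 36.7% to 42.2% in replicates 1 to 5, against 37.8% to 46.7% in WT. That of Eno1 to Eno2 went from 5.95 ± 0.29 to 4.68 ± 0.60 (exact p = 0.000123, adjusted 0.00148). That of Pdk1 to Pdk2 went from 1.09 ± 0.64 to 1.97 ± 0.63 (exact p = 0.0102, adjusted 0.0408), with an adjusted p of 0.197 in the exact test without HIF2 replicates 6 to 8. Leaving out 1 library at a time ended that call in 11 of 18 fits (WT replicates 1, 2, 3, 5, 7 and 8 and HIF2 replicates 0, 1, 6, 7 and 8; adjusted p up to 0.0765 in the exact test). It brought Hk2 to Hk1 to an adjusted p of 0.05002 in the exact test, just past the threshold, without WT replicate 7, and left Eno1 to Eno2 at 0.00395 or lower. The other 9 pairs did not pass, among them Slc2a1 to Slc2a3 (5.02 to 4.24, adjusted p = 0.0523 in the exact test) and Slc16a3 to Slc16a1 (-4.58 to -3.64, adjusted p = 0.0952 in the exact test). The first of these was lower by 1.19 log2 units without HIF2 replicates 6 to 8 (adjusted p = 0.00599 in the exact test).

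**Figure D3:**
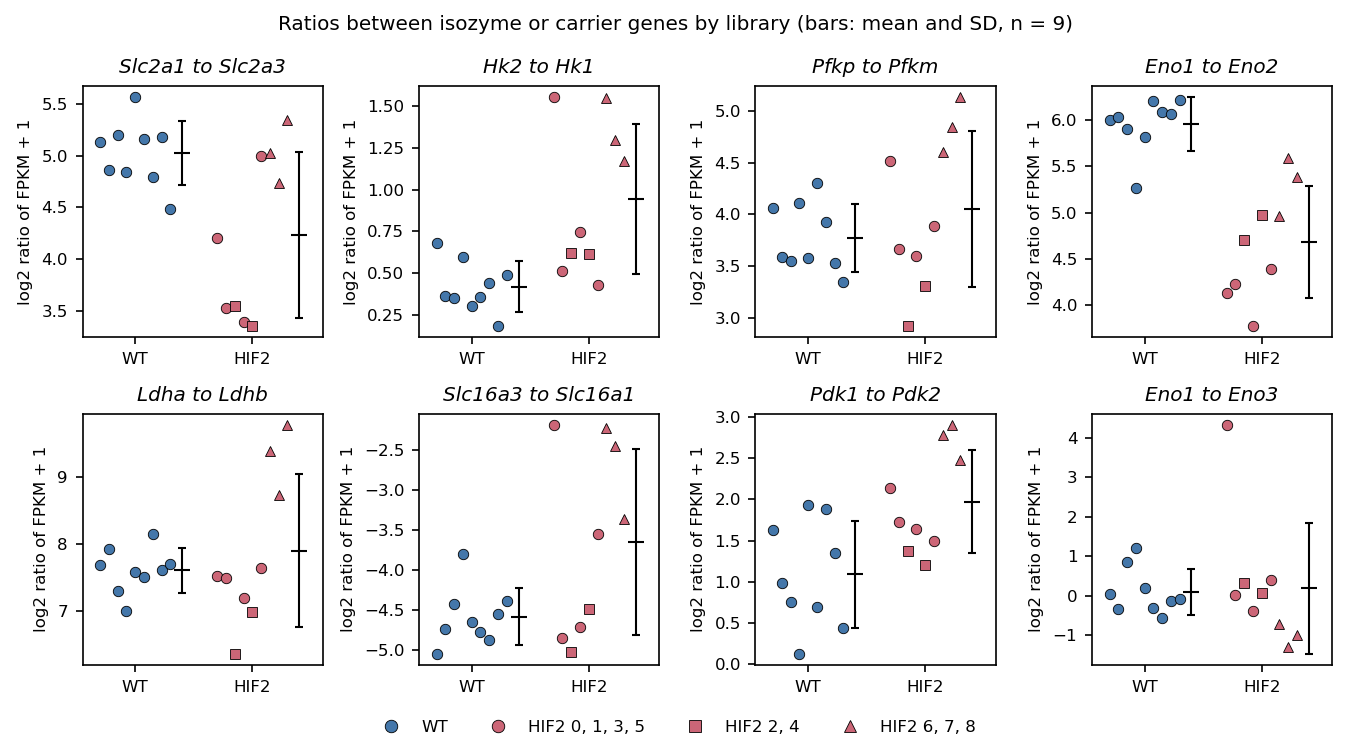
Log2 ratios of FPKM + 1 for 8 of the 12 gene pairs in each library, with the mean and SD of each group of 9; squares are HIF2 replicates 2 and 4 and triangles replicates 6 to 8. The Eno1 to Eno2 ratio is lower in HIF2, the Hk2 to Hk1 ratio is higher, mainly in the triangles and HIF2 replicate 0, and for Ldha to Ldhb the triangles lie above all other points.

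The picture changed with the libraries used. In HIF2 replicates 6 to 8 alone, 10 of the 30 tested genes were above every WT library (Pfkl, Pfkp, Aldoa, Aldoc, Tpi1, Gapdh, Pgam1, Ldha, Slc16a3 and Pdk1), as were 979 of all 13976 genes tested (7.0%). Hk1 and Eno1 were below every WT library, as were 7.56% of all genes. In HIF2 replicates 0 to 5, Eno2 alone was above every WT library and Pfkfb4 alone below (6.15% and 2.33% of all genes). HIF2 replicates 2 and 4 had both Eno2 and Pdk4 above the WT range, with Ldhb and Pdk3, and Slc2a1, Pfkfb2 and Pfkfb4 below it (10.8% and 9.27% of all genes). These sets of libraries were drawn up with the Egln3, Slc11a2, marker and sex-linked levels already seen, and the differences between them were not tested.

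Without HIF2 replicates 2 and 4, 10 genes rose and 3 fell (10.6% and 11.2% of all genes). These 2 libraries were picked out by Egln3 and Slc11a2 levels in these same data, so stronger differences without them are no independent support. The added calls were Aldoa, Pdk1, Pfkl, Slc16a3 and Tpi1, which rose, and Slc16a1, which fell. The log2 difference of Ldha was then 0.95 (limma adjusted p = 0.000269) and that of Pfkp 0.87 (0.000535). Without HIF2 replicates 6 to 8, 4 rose and 4 fell (12.4% and 13.4% of all genes). Gapdh was higher by 0.33 (limma adjusted p = 0.0224), Eno2 by 1.35 (3.47e-05), Ldhb by 0.82 (0.00169) and Pdk4 by 1.10 (0.0202). Ldha (0.41, adjusted p = 0.0506), Pfkp (0.30, 0.106) and Pgk1 (0.25, 0.112) no longer passed, Hk1 (-0.42) and Eno1 (-0.23) still did, and Pfkfb2 and Pfkfb4 also fell.

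With smooth muscle RNA near the WT level in both groups the pattern was another. WT replicates 5 to 8 and HIF2 replicates 6 to 8 all had Xist RNA and smooth muscle markers between -1.11 and 0.56 log2 units from the WT mean. Between these, 10 genes rose and 1 fell (4.44% and 5.15% of all genes tested). Slc16a3 rose by 1.55 ± 0.25 (SE, limma adjusted p = 0.0127), Ldha by 1.34 ± 0.13 (0.00202), Pfkp by 1.30 ± 0.08 (0.00047), Pfkl by 1.11 ± 0.10 (0.00148) and Pdk1 by 1.10 ± 0.14 (0.00478). Tpi1, Gapdh, Pgam1, Aldoc and Aldoa rose too, and Hk1 fell by 0.87 ± 0.17 (0.0249). Eno2 differed by 0.55 and Eno1 by -0.28, neither passing. With all WT libraries but replicate 3 against HIF2 replicates 6 to 8, 11 genes rose and 3 fell (8.99% and 10.1% of all genes), Pgk1 (0.53), Eno1 (-0.28) and Slc16a1 (-0.50) being called as well. The markers of macrophages were 0.52 to 1.35 log2 units above the WT mean in these HIF2 libraries and those of epithelium 0.36 to 0.53 below it, and their part in the result was not tested. Slc11a2 was also highest in these HIF2 libraries, at 1525 to 2101 FPKM against 229 to 469 in HIF2 replicates 0, 1, 3 and 5. Egln3 was at 473 to 549 against 225 to 449 FPKM. The part of these levels in the result was not tested either. Pkm, the last step of glycolysis, listed as Pkm2 and not among the 33, was at 787, 861 and 789 FPKM in HIF2 replicates 6 to 8 against 286 to 468 in WT. Over all libraries Pkm differed by 0.50 ± 0.19 (adjusted p = 0.0742). Pklr, the other pyruvate kinase gene listed, differed by -0.36 ± 0.14 (limma adjusted p = 0.0810). It was at 32.8, 30.2 and 34.7 FPKM in HIF2 replicates 6 to 8, against 24.5 to 33.3 in WT.

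**Figure D4:**
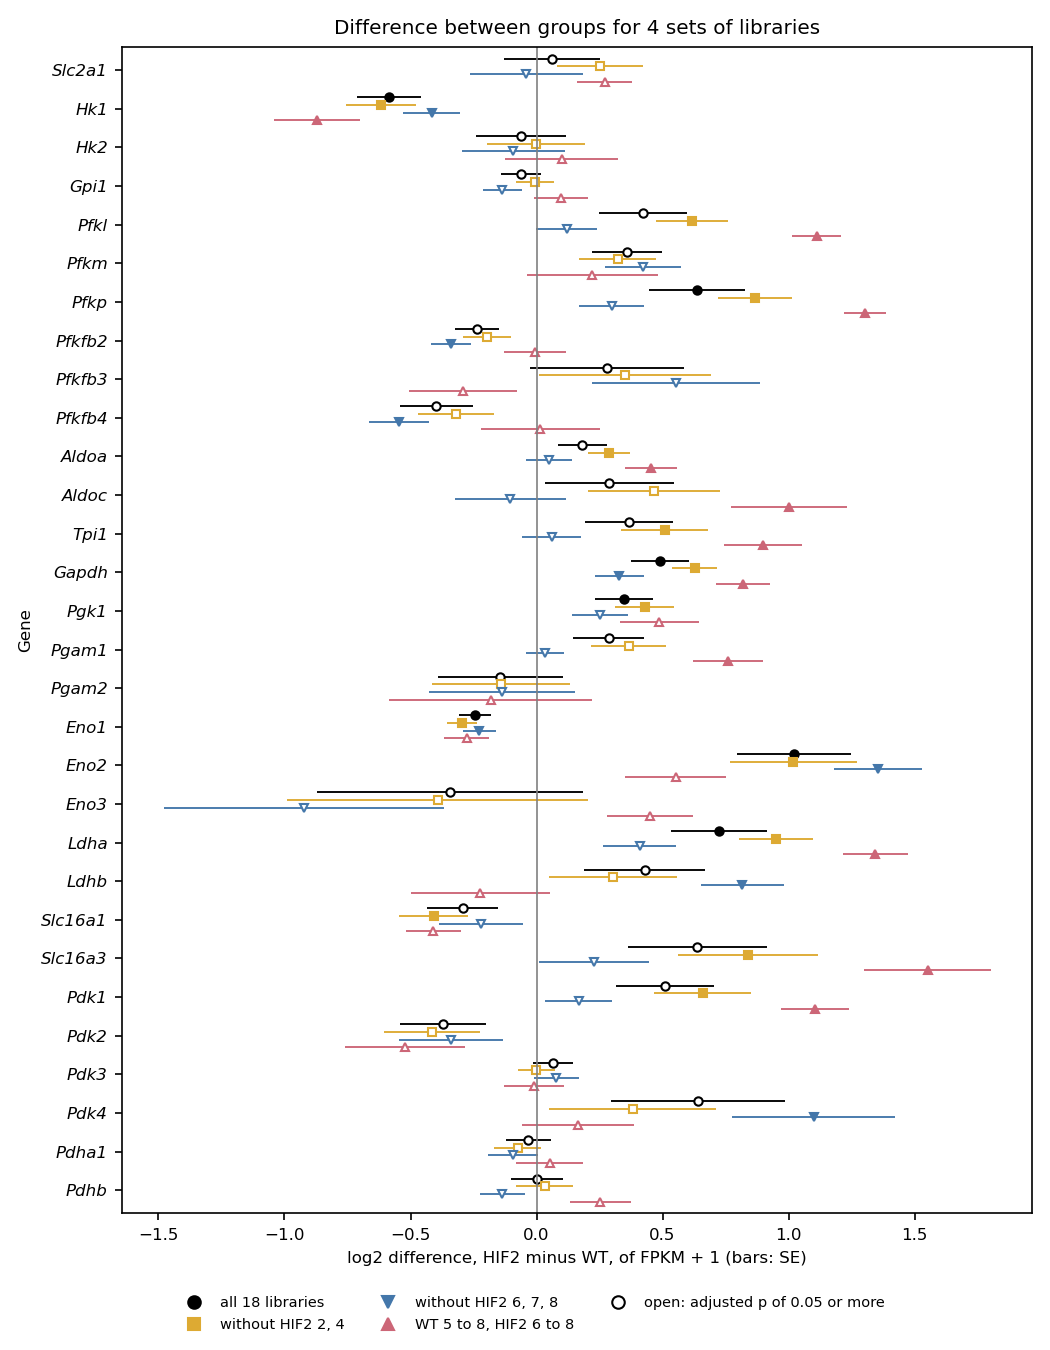
Log2 difference (HIF2 minus WT) with its SE for the 30 tested genes in 4 sets of libraries; filled symbols have an adjusted p under 0.05 over all genes tested. For Pfkl, Pfkp, Tpi1, Ldha, Slc16a3 and Pdk1 the differences are largest between WT replicates 5 to 8 and HIF2 replicates 6 to 8 and smallest without HIF2 replicates 6 to 8, and for Eno2, Ldhb and Pdk4 the order is the reverse.

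With the smooth muscle marker mean as a covariate over all 18 libraries, 10 genes rose and 2 fell (7.06% and 7.41% of all genes). Ldha then differed by 1.19 (limma adjusted p = 0.000611), Pdk1 by 1.11 (0.000185), Pfkp by 1.11 (0.00104) and Hk1 by -0.88 (0.000409), while Eno2 differed by 0.42 (adjusted p = 0.185). With quantile normalization 8 rose and 1 fell (10.8% and 12.5% of all genes), and with array weights, which give less weight to libraries that fit poorly, 8 rose and 4 fell (14.3% and 16.1%). With epithelial markers added as well, 2 rose (Pdk1 by 1.21, Tpi1 by 0.92) and Hk1 alone fell, by 0.95, against 2.53% and 1.47% of all genes. Ldha was at 1.02 (limma adjusted p = 0.0505), with an SE of 0.28 against 0.19 with the smooth muscle covariate alone. The epithelial marker mean nearly separates the groups (-0.66 to -0.21 in HIF2, -0.24 to 0.14 in WT). A smaller difference and a lower precision therefore cannot be told apart in this fit. Over the alternatives other than leaving out 1 library, Hk1 was called in all 16 and Gapdh in 15 of 16. Gapdh, Ldha, Eno1 and others of these genes have processed pseudogenes of nearly the same sequence, and how shared reads were assigned was not stated, so their levels are uncertain to that extent.

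**Figure D5:**
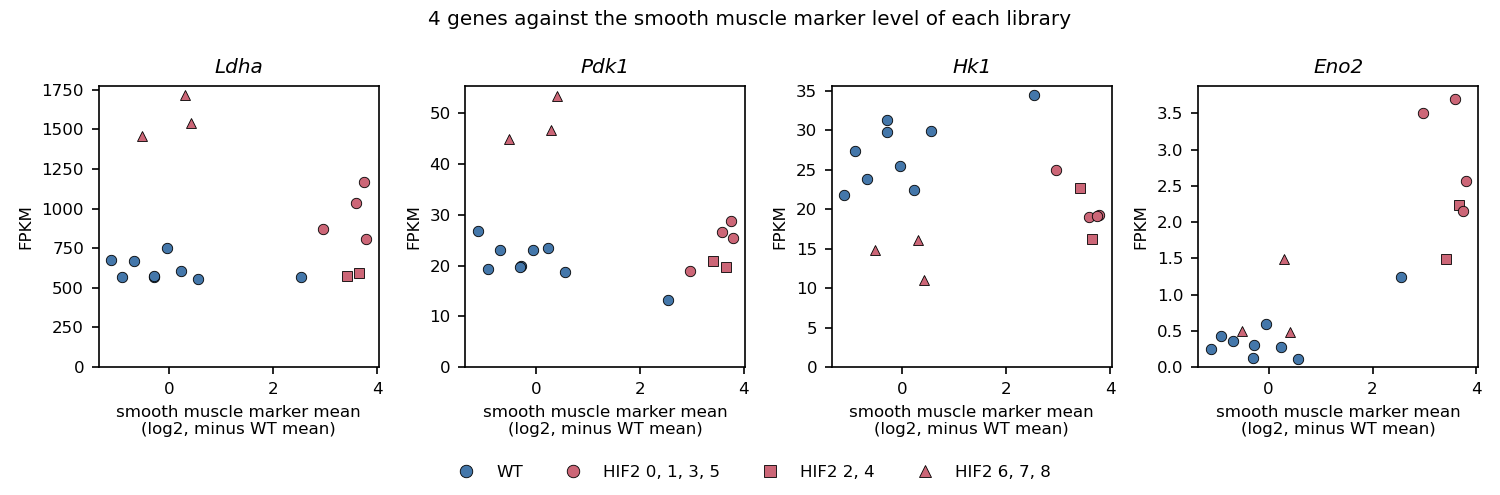
FPKM of Ldha, Pdk1, Hk1 and Eno2 against the mean level of smooth muscle markers (log2, minus the WT mean) in 18 libraries; blue is WT, red is HIF2, squares are HIF2 replicates 2 and 4 and triangles replicates 6 to 8. Ldha and Pdk1 are highest in the triangles, at a smooth muscle level within the WT range, while Eno2 is high where smooth muscle markers are high, in WT replicate 3 too.

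Neighbouring pathways were read from lists of genes outside the 33. Of 14 tested other glycolysis genes and isozymes, 1 rose and 4 fell, with a median log2 difference of -0.08. Hkdc1, a hexokinase-like gene, fell from 11.9 to 37.7 FPKM in WT to 1.44 to 11.7 in HIF2, with no overlap (-1.79 ± 0.32 log2, limma adjusted p = 0.000689). The carriers Slc2a5 (fructose), Slc2a6 and Slc2a10 fell by 0.86, 0.79 and 0.61, and Slc2a4, the insulin-responsive carrier of muscle and fat, rose by 1.31 (limma adjusted p = 0.0224), from a median of 1.02 to 6.03 FPKM. In the latter, HIF2 replicates 6 to 8 were at 0.459 to 1.80 FPKM and WT replicate 3 at 5.21. Slc2a5 had a HIF2 mean of 0.50 FPKM and reached the mean needed for a test only through WT (1.76). This favours a call as lower.

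Of 15 tested glycogen genes, 4 rose and 1 fell. Gbe1, the branching enzyme, was at 7.40, 11.0 and 16.7 FPKM in WT and 9.22, 44.5 and 69.0 in HIF2 (1.53 ± 0.32 log2, limma adjusted p = 0.00239), and the 2 HIF2 libraries within the WT range were replicates 2 and 4. Ppp1r3b and Ppp1r3c, which target a phosphatase to glycogen, rose by 1.73 and 1.31, and Pygm, muscle glycogen phosphorylase, rose by 0.87. Ppp1r3c and Pygm had WT means of 0.514 and 0.445 FPKM and reached the mean needed for a test only through HIF2 (2.91 and 1.76). Their highest WT values, 1.64 and 0.957 FPKM, were in WT replicate 3, which had the most smooth muscle RNA of WT. In HIF2 replicates 6 to 8 they were at 0.857 to 1.36 and 0.273 to 1.16 FPKM. Pgm1 fell by 0.19. Of 7 gluconeogenesis and fructose genes, 1 passed: Pck1, which makes phosphoenolpyruvate from oxaloacetate, fell by 1.18 (limma adjusted p = 0.000702). Of 7 pentose phosphate genes, G6pdx and Pgd, its oxidative enzymes, fell by 0.27 and 0.29, and of 3 glycerol phosphate shuttle genes Gpd1 fell by 0.55. These lists hold few genes each, and their counts are a description beside the 11.0% and 11.1% of all genes.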

How the data were processed

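The authors deposited FPKM (fragments of a gene divided by its length and by the library's total), with 1 column per library. Per the labels' protocols, libraries of colon RNA were made with a TruSeq RNA kit that does not mark strand. Per the submitters' processing notes, the mm10 build was used with Cufflinks, Cuffdiff 2.1.1, TopHat, TopHat2 2.0.9, Bowtie2 2.1.0.0 and FastQC, in no stated order. Depth is unknown, so no counting interval was computed, and FPKM sums ranged from 686539 to 937505. Reads of overlapping genes cannot be told apart.

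Values were analysed as log2(FPKM + 1), which understates changes of low genes, for genes with a mean of at least 1 FPKM, with limma 3.58.1 in R 4.3.3 (trended prior, no covariates, 2-sided, Benjamini-Hochberg adjustment at 0.05). The procedure was tested on simulated data. Alternatives were other pseudocounts, filters, scalings, covariates, a replicate block, and libraries left out. The fit with Y-linked genes as a covariate and that of WT replicates 5 to 8 against HIF2 replicates 6 to 8 were chosen after seeing the data. The other subsets that left out several libraries were likewise drawn up from levels seen in these data.

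The genes, lists and tests were chosen with earlier results of these data known. Every one of the 33 genes could be named, and of neighbouring lists, up to 6 called genes each with the smallest p. Pkm and Pklr, the pyruvate kinase genes, were named though not called. Symbols absent from the table were sought through RefSeq synonyms, which gave 5 more genes in the neighbouring lists (Pkm as Pkm2, Mpc1 as Brp44l, Mpc2 as Brp44, Tigar as 9630033F20Rik, Eno1b as Gm5506). Promoter windows are from RefSeq on GRCm38.p6, where Slc2a3 had no entry. An item of the neighbouring lists is not reported here, and counts of those lists leave it out.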

Additional observations from a re-analysis of the deposited data

Results flagged for a closer look

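A library was listed when its gap to the nearest of its group, divided by the range of the group on the log2(FPKM + 1) scale, exceeded the 95% critical value of Dixon's test for 9 values. With 66 groups checked, about 1 in 20 would pass by chance, and 6 did. HIF2 replicate 0 accounted for 4 of them. Slc2a1 was at 91.6 FPKM there against 48.3 in the next library, Pfkfb3 at 12.0 against 1.95, Eno3 at 2.94 against 49.6 and Pdk2 at 3.55 against 5.95. Pfkfb4 was at 23.3 FPKM in WT replicate 4 against 15.8, and at 20.9 in HIF2 replicate 6 against 12.1.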

How the results depend on the processing

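Against 5 genes higher and 2 lower over all libraries, the counts were 8 and 1 with quantile normalization, 8 and 4 with array weights, 10 and 2 with smooth muscle markers as a covariate, 2 and 1 with epithelial markers added, 10 and 3 without HIF2 replicates 2 and 4, 4 and 4 without HIF2 replicates 6 to 8, 11 and 3 without WT replicate 3 and HIF2 replicates 0 to 5, and 10 and 1 for WT replicates 5 to 8 against HIF2 replicates 6 to 8. The cause was not tested. Leaving out 1 library at a time gave 4 to 7 higher and 2 to 4 lower, with 1333 to 1653 and 1343 to 1662 of all 13976 genes. Of all genes, 640 of 9287 were higher with a filter at 5 FPKM and 2407 of 22774 with no filter, against 1531 of 13976 with the filter at 1 FPKM. With the smooth muscle covariate 987 of 13976 were higher and 1036 lower, and with both covariates 354 and 205. For WT replicates 5 to 8 against HIF2 replicates 6 to 8 the counts were 620 and 720, against 1531 and 1557 over all libraries. The log2 ratio of Eno1 to Eno3 differed by 0.10 (HIF2 minus WT) over all libraries. That difference was -0.96 without WT replicate 3 and HIF2 replicates 0 to 5. Same-numbered libraries did not deviate together (correlations of -0.03 to 0.11, 1 of 9 best with its own number), so the numbers do not pair them; with a replicate block 5 genes were higher and 2 lower, with 1355 and 1345 of all genes. FPKM without counts limits what can be said of low genes such as Eno2.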
